A study of Rattus norvegicus with 10 samples.

Results

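Potassium channel genes were examined in rat skeletal muscle at 0 h and 48 h of postmortem interval (PMI). A gene was included when its symbol in the platform's probe table started with Kcn, followed by further letters and a number. This gave 86 genes (88 probe sets) of the 15037 genes with a symbol on the array, and a gene with several probe sets was represented by the one with the highest mean. The rule for genes used no measured value, while the choice among the probe sets of a gene used their means. The arrays were Clariom S Rat arrays, 1 for each of 10 wild-type adult male Wistar rats, whose age is not given in the sources used here. All were killed by cervical dislocation. In 5 rats femoral muscle was taken immediately (0 h), and the other 5 rats were kept as whole bodies at 25 °C for 48 h before sampling. The values are log2 values made by the authors with RMA, which sets the arrays on a common scale, so that a loss shared by all transcripts is not visible.

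Potassium channels are membrane proteins that let potassium ions leave or enter a cell and thereby set its resting potential and end its action potentials. Voltage-gated channels open when the membrane depolarizes. Inward rectifiers hold the resting potential, and one of them closes when ATP is plentiful, which ties fibre excitability to energy supply. Tandem-pore (Kcnk) channels carry leak currents, calcium-activated channels respond to intracellular calcium, and accessory subunits adjust the traffic and gating of the pores they bind. Skeletal muscle fibres use a limited set of these genes, while many others are known from brain, heart, kidney or the vessel wall.

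Of the 86 genes, 7 fell and 3 rose at 48 h. The words fall and rise are kept for genes that moved at least 2-fold and had a p under 0.05 in limma after Benjamini-Hochberg adjustment over all 23188 probe sets tested. The genes that fell were Kcnma1, Kcnj11, Kcnc4, Kcnj12, Kcnip3, Kcne5 and Kcnq5, and those that rose were Kcna1, Kcnq1 and Kcns2. The share that fell was 8.14%, against 12.1% of all probe sets tested, and the share that rose was 3.49%, against 4.35%. Over the 15037 genes with a symbol, these background shares were 14.4% and 3.85%. The median change, always given as the log2 value at 48 h minus that at 0 h, was 0.21 in the 86 genes and 0.10 in all probe sets. After cyclic loess these medians were −0.06 and 0.01, and centring each array on its background probe sets moved them to −0.39 and −0.49. After cyclic loess and robust z-score scaling all 7 falls stayed below 0 and all 3 rises above 0. Centring on background probe sets or on olfactory receptor genes lowers every change by the same amount, so the falls could not turn there. All 3 rises stayed above 0 under both centrings, but Kcna1 alone was still called. With adjusted p alone, and no fold criterion, 10 genes (11.6%) were lower and 17 (19.8%) higher, against 22.8% and 22% of all probe sets.

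**Figure D1:**
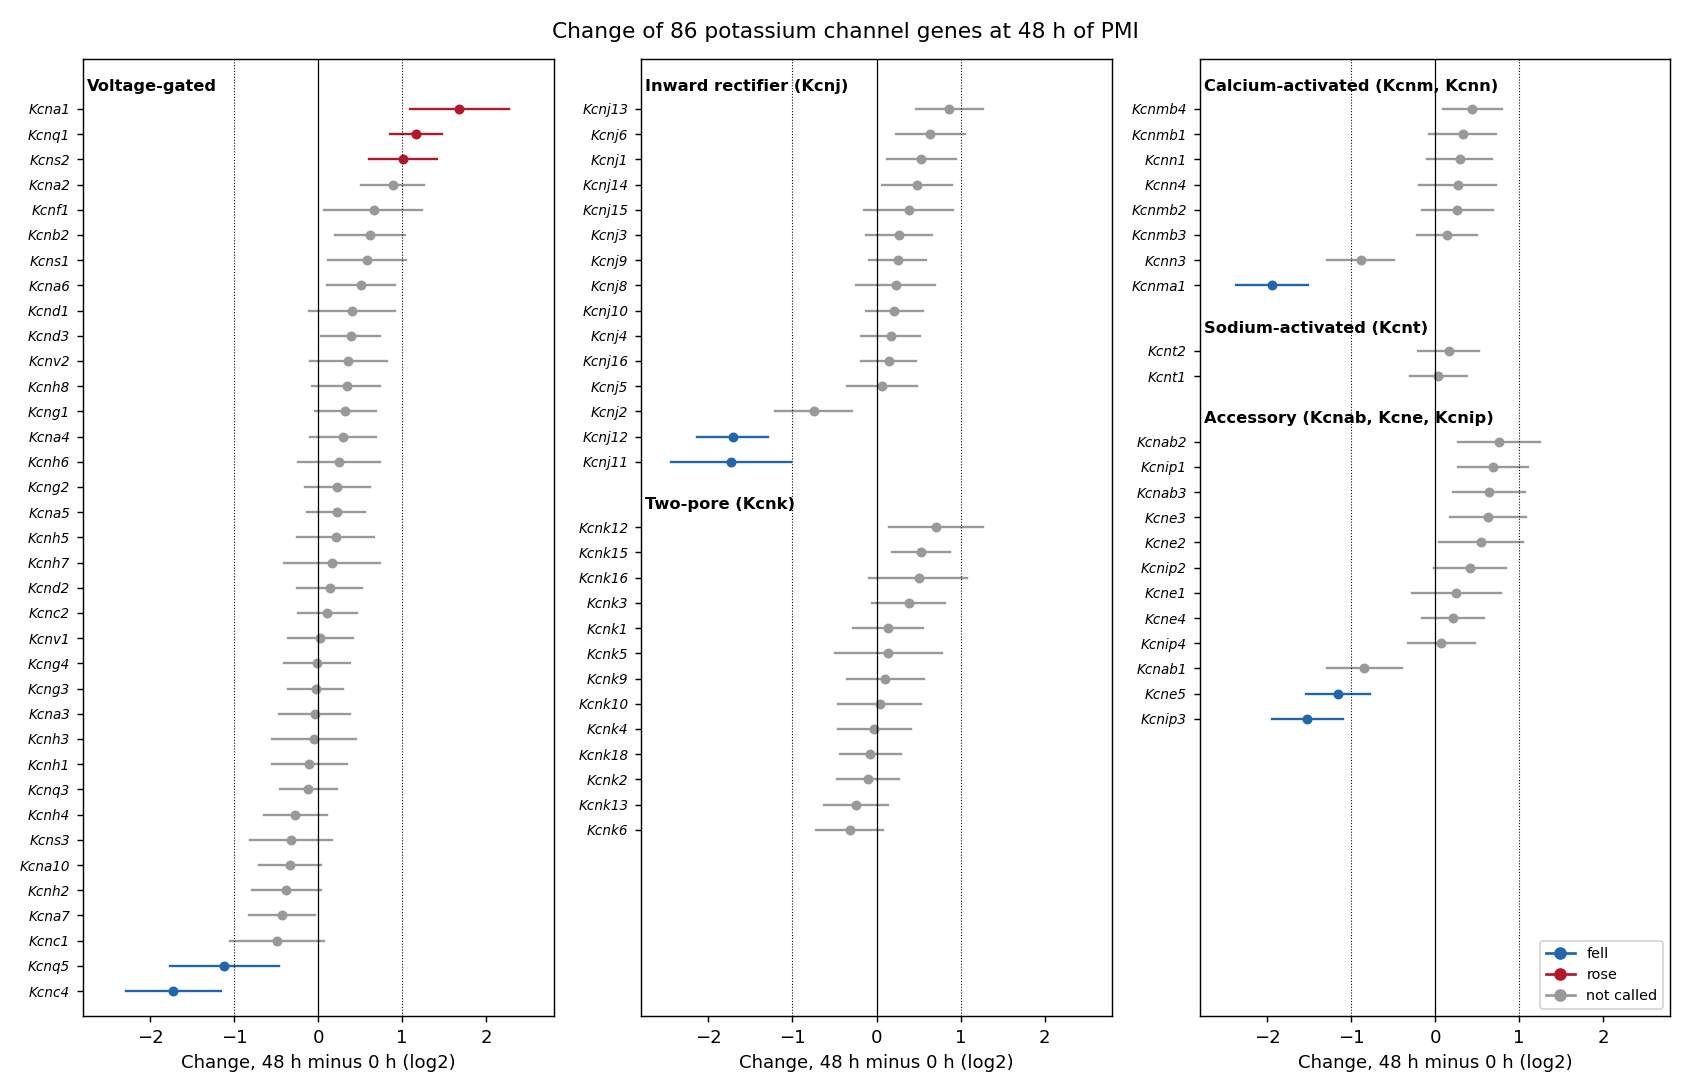
Change of each potassium channel gene at 48 h (log2, 48 h minus 0 h), grouped by family, where points are differences of group means (n = 5 and 5) and lines are 95% confidence intervals from limma. Dotted lines mark a fold of 2 in each direction, with 7 genes that fell in blue, 3 that rose in red and 76 in grey.

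Promoter sequences were available in RefSeq (build GRCr8) for 61 of the 86 genes, for 5 of the 7 that fell and for none of the 3 that rose. The 250 bases upstream of the annotated start are shown for those 5, as all 5 fell, with each match to the GC box (GGGCGG on either strand, bound by Sp-family factors) in capitals. The windows are chr15:351675-351924 on the plus strand for Kcnma1 and, on the minus strand, chr2:197788434-197788683 for Kcnc4, chr3:135195411-135195660 for Kcnip3, chrX:110727850-110728099 for Kcne5 and chr9:31891282-31891531 for Kcnq5.
Kcnma1: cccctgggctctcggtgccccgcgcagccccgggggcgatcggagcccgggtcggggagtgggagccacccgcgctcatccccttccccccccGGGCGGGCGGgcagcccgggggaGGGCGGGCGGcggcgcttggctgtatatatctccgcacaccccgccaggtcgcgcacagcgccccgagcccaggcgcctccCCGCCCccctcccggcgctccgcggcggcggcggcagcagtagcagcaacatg
Kcnc4: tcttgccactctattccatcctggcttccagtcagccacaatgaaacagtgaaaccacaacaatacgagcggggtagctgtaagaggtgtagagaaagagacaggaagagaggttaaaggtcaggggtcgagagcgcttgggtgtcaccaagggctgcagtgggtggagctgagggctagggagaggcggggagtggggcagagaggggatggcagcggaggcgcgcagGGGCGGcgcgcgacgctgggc
Kcnip3: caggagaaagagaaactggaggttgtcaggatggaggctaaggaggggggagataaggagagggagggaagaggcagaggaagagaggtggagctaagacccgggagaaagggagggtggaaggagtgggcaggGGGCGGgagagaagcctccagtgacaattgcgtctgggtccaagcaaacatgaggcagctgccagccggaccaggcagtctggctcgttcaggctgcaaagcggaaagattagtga
Kcne5: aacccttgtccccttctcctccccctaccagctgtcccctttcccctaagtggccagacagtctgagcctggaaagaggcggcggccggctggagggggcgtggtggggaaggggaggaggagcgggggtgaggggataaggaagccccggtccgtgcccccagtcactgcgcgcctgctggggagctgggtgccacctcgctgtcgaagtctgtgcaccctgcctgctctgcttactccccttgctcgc
Kcnq5: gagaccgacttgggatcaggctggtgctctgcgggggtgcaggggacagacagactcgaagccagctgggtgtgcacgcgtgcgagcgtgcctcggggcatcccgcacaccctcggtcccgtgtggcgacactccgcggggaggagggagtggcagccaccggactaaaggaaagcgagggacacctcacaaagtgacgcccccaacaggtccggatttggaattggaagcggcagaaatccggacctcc
The GC content was 79.6% for Kcnma1, 60.8% for Kcnc4, 58.4% for Kcnip3, 67.6% for Kcne5 and 65.2% for Kcnq5. Its median was 59.6% over the 61 genes and 51.2% over 33469 promoters of the same length. GC boxes occurred in 3 of the 5 (5 matches in Kcnma1, 1 each in Kcnc4 and Kcnip3), in 30 of the 61 (49.2%) and in 30.5% of all promoters. Motifs were searched on both strands, overlapping matches included, and a match is no evidence of binding. An E-box (CANNTG, the site of myogenic factors) occurred in 3 of the 5, in 36 of the 61 (59%) and in 65.5% of all promoters. None of the 5 held a TATAAA, a MEF2 consensus or a CArG box, which 12.9%, 2.96% and 1.5% of all promoters held.

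Most of these genes lay low on the array. Of the 86, 19 had a mean over the 10 arrays at or above the median of all probe sets, and 67 were below it. Among the 19, 6 fell and 1 rose, with a median change of −0.43. Over all probe sets above that level, 22.7% were lower, 4.61% higher and the median was −0.26. Among the 67, 1 fell and 2 rose, and the median change was 0.25, against 1.58%, 4.1% and 0.28 for all probe sets below it. For background the array has 23 probe sets of graded G and C content. Their median went from 3.10 ± 0.045 to 3.69 ± 0.12 (log2, mean ± SD of 5 rats), and the highest of them in each array from 7.22 ± 0.25 to 9.02 ± 0.48. At 0 h, 80 of the 86 genes exceeded the background median in all 5 rats, and at 48 h 53 did. Kcng1 and Kcnj10 exceeded it in none of the 10 arrays. Against the highest background probe set, Kcnma1, Kcnn3, Kcnj11 and Kcnc4 were above in all 5 rats at 0 h. At 48 h no potassium channel gene was above in any rat. By its mean, the highest was the probe set richest in G and C. It went up by 1.80, against 0.28 for the poorest, so its level is not a general limit of detection. These counts against background were not made over all probe sets. Rats differed more at 48 h, with a median SD of 0.38 against 0.20, and 74 of the 86 genes varied more at 48 h. All probe sets did likewise, with medians of 0.37 and 0.19 and a larger SD at 48 h for 19833 of 23188. Whether the higher background at 48 h had a part in the higher values of dim genes given below was not tested.

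**Figure D2:**
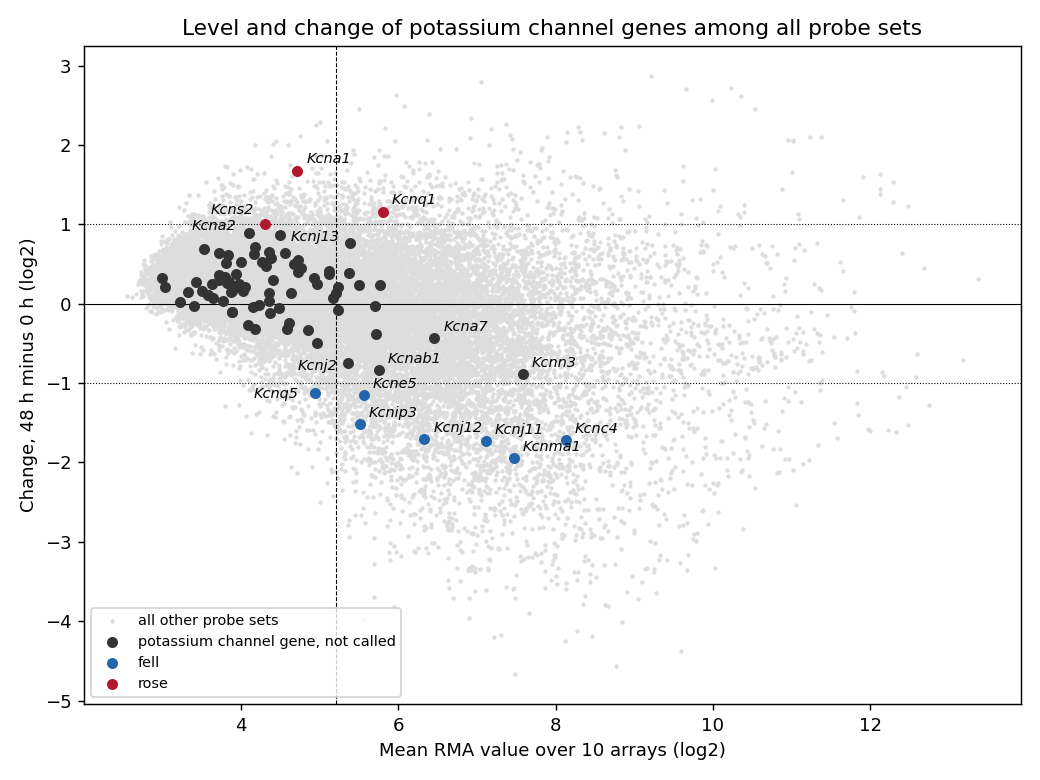
Change at 48 h (log2, 48 h minus 0 h) against the mean RMA value over the 10 arrays (log2) for all 23188 probe sets in grey, with potassium channel genes as larger points. The dashed line is the median level of all probe sets. Of the 7 genes that fell, 6 lie to its right, and of the 3 that rose, Kcnq1 does.

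The tissue label was checked with markers, and those of other cell types were counted. The 4 measured muscle fibre markers (Acta1, Ckm, Myh4, Des) had means of 11.05 to 13.54 at 0 h, and 3 of them fell. All 6 slow-fibre genes fell, each with overlap between the groups. Their median in each rat was 5.40 to 11.03 at 0 h and 5.40 to 6.69 at 48 h. Of 5 leukocyte markers 1 fell, and all 4 erythroid markers rose. Endothelial markers rose in 5 of 6, fibroblast markers fell in 4 of 5, and of 6 markers of vascular smooth muscle and pericytes, none fell or rose. The summed level of these lists, as log2 of the sum, was 14.66 to 14.81 at 0 h and 13.05 to 13.98 at 48 h for fibres. It was 10.18 to 10.58 and 11.50 to 12.31 for endothelium, 12.42 to 12.99 and 11.31 to 11.60 for fibroblasts, and 10.15 to 10.83 and 11.02 to 11.61 for smooth muscle. In whole tissue, fewer cells of a type and less RNA per cell cannot be told apart. The paper states that RNA integrity was not assessed at 48 h.

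The largest fall was that of Kcnma1, which encodes the pore of the large-conductance calcium-activated channel (probe set TC1500000008.rn.2). Its values in rats 1 to 5 were 8.26, 8.66, 8.26, 8.33 and 8.68 (log2) at 0 h and 7.10, 6.29, 6.77, 6.01 and 6.32 at 48 h. The groups did not overlap, and the change was −1.94 (SE 0.20, 3.84-fold lower, limma adjusted p = 9.37e-07). The auxiliary beta subunits of this channel were not called. Kcnmb1, the beta subunit known from smooth muscle, had a difference of 0.33 between 48 h and 0 h (95% interval −0.07 to 0.73), Kcnmb4 one of 0.44 (0.09 to 0.80), Kcnmb2 of 0.26 and Kcnmb3 of 0.14. Kcnn3, a small-conductance calcium-activated channel, was 7.98, 8.05, 7.90, 7.94 and 8.28 at 0 h and 6.84, 7.76, 7.09, 7.23 and 6.80 at 48 h. All 5 rats at 48 h lay below those at 0 h, but the change of −0.88 (SE 0.19, adjusted p = 0.00116 from limma) was under the fold of 2. Without 48 h rat 2, the highest of its group, it was −1.04 and met both criteria. After cyclic loess and robust z-score scaling it was −0.37 and −0.31 and no longer passed (adjusted p = 0.138 and 0.27), while centring on background probe sets or olfactory receptor genes gave −1.48 and −1.40, which met both criteria. Kcnn1 and Kcnn4, the latter known from red cells and lymphocytes, had differences of 0.30 (−0.09 to 0.68) and 0.27 (−0.19 to 0.72).

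Among 15 inward rectifiers, 2 fell and none rose. Kcnj11, the pore of the ATP-sensitive channel (TC0100005418.rn.2), was 7.71, 7.99, 8.32, 8.23 and 7.63 at 0 h and 6.64, 7.12, 6.50, 6.34 and 4.61 at 48 h. Rat 5 at 48 h was the lowest by a wide margin, and the groups did not overlap. It fell by 1.73 (SE 0.34, limma adjusted p = 0.000544), and the change was −1.33 without that rat. Kcnj12, a classical inward rectifier of striated muscle (TC1000000774.rn.2), was 7.11, 7.32, 7.19, 7.26 and 7.06 at 0 h and 5.43, 5.03, 6.08, 5.75 and 5.10 at 48 h. The rats at 0 h were close to each other, all above those at 48 h, and the change was −1.71 (SE 0.20, adjusted p = 2.71e-06). Kcnj2, the other classical inward rectifier of muscle, mutated in a form of periodic paralysis, was 6.18, 5.74, 5.58, 5.24 and 5.95 at 0 h and 5.51, 5.17, 4.56, 5.14 and 4.56 at 48 h. Its groups overlapped, and the change of −0.75 (SE 0.22, adjusted p = 0.0107) was under the fold of 2, which it passed under both centrings (−1.34 on background probe sets, −1.27 on olfactory receptor genes). Kcnj8, the pore of the ATP-sensitive channel in vascular smooth muscle and pericytes, had a difference of 0.23 (−0.24 to 0.70). The 6 markers of these cells had differences of 0.05 (Cnn1) to 0.99 (Tagln), with a median of 0.50. Kcnj13, known from epithelia that transport ions, had a difference of 0.86 (SE 0.19, adjusted p = 0.0013), with all rats at 48 h (4.68 to 5.59) above those at 0 h (3.87 to 4.26). The remaining 10 inward rectifiers had differences of 0.07 to 0.64, none of them called.

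**Figure D3:**
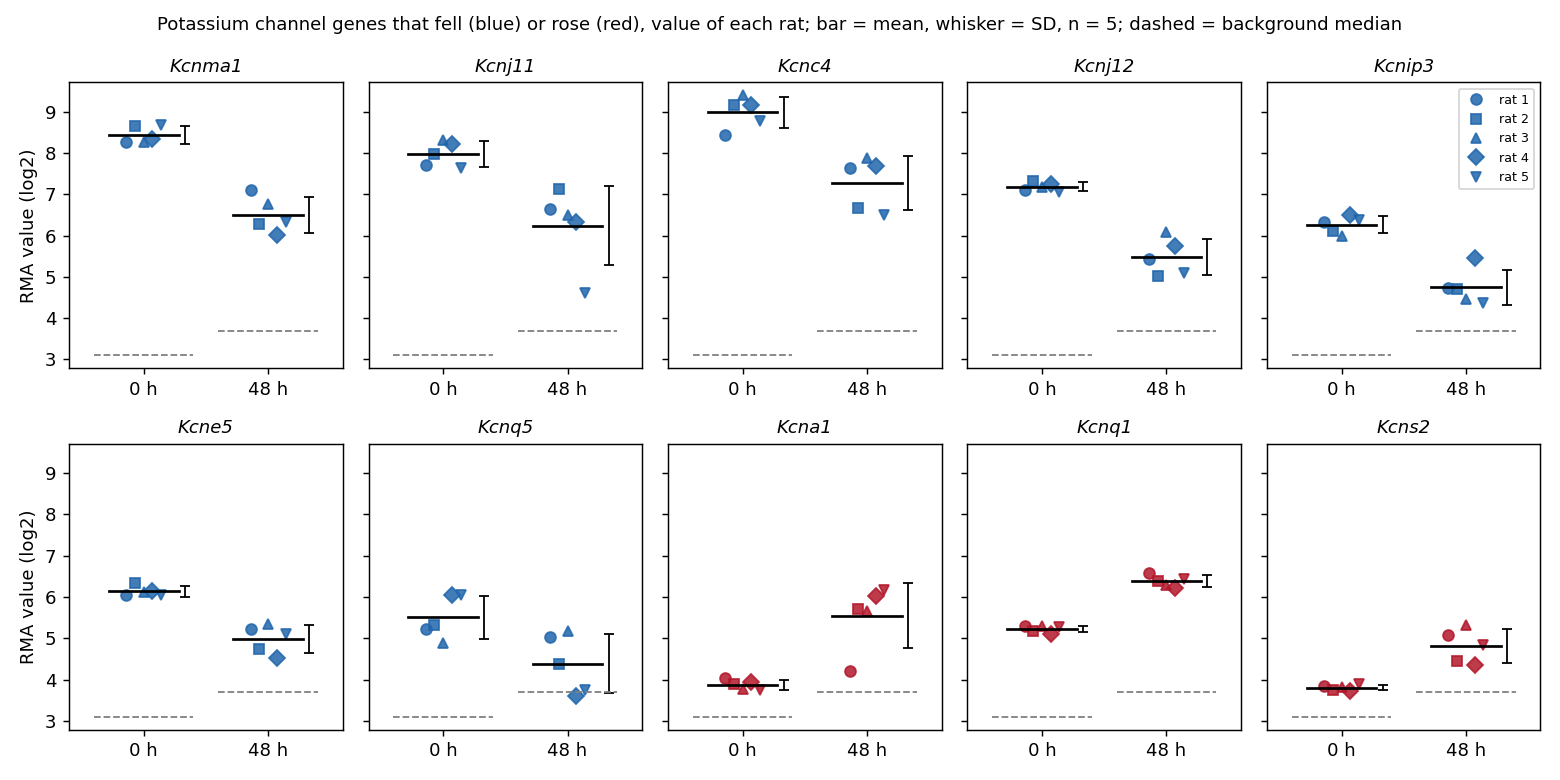
RMA value (log2) of each rat for the 7 genes that fell (blue) and the 3 that rose (red). Marker shapes number the rats within each group, bars are means, whiskers are SDs (n = 5), and dashed lines are the mean background median. The groups overlap for Kcnq5 alone, and 48 h rat 1 lies apart from its group for Kcna1.

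Of 36 voltage-gated genes, 2 fell and 3 rose. Kcnc4, a fast repolarizing channel of muscle fibres (TC0200005005.rn.2), was 8.44, 9.17, 9.40, 9.16 and 8.78 at 0 h and 7.63, 6.66, 7.89, 7.69 and 6.49 at 48 h. The groups did not overlap, and the change was −1.72 (SE 0.27, adjusted p = 6.83e-05 from limma). It was −1.15 after cyclic loess and −1.03 (adjusted p = 0.0184) after robust z-score scaling, just past the fold of 2. Its relative Kcnc1 was 4.35, 4.97, 6.04, 5.30 and 5.41 at 0 h and 4.43, 5.28, 4.85, 4.24 and 4.81 at 48 h. It had the largest SD of all 86 genes at 0 h (0.62), and its change of −0.49 had an interval of −1.05 to 0.07. This value was −0.28 without 0 h rat 3 and −0.70 (adjusted p = 0.0318) without 0 h rat 1, and it was called at −1.08 and −1.01 when arrays were centred on background probe sets or olfactory receptor genes. Kcnc2, known from neurons, had a difference of 0.11 (−0.24 to 0.46). Kcnq5, a subunit of the slowly activating M-current family that also occurs in muscle (TC0900001717.rn.2), was 5.23, 5.31, 4.88, 6.04 and 6.06 at 0 h and 5.02, 4.38, 5.17, 3.61 and 3.75 at 48 h. The groups overlapped, through rats 1 and 3 at 48 h and rat 3 at 0 h. It fell by 1.12 (SE 0.31, adjusted p = 0.00699), and the call ended without moderation (adjusted p = 0.0548). It also ended without any of 0 h rats 4 and 5 and 48 h rats 4 and 5, at −0.98, −0.98, −0.92 and −0.96.

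Kcnq5 and Kcnc1 were 2 of the 3 genes with the largest spread at 0 h, and Kcnab1 was the other. The slow-fibre genes, whose median in rats 1 to 5 at 0 h was 5.40, 10.20, 6.89, 9.89 and 11.03, also varied widely between the same rats. Kcnq5 was highest in rats 4 and 5, followed by rat 2 (5.31), which was close to rat 1 (5.23). Rats 2, 4 and 5 were also the 3 highest for the slow-fibre genes. Kcnc1 was highest in rat 3 and lowest in rat 1, and Kcnab1 was highest in rat 5 and lowest in rat 4. These 3 genes thus did not share an order with each other. With 5 rats, no relation to fibre type was tested. Kcna7, a voltage-gated channel of skeletal and heart muscle, was 6.43 to 6.80 at 0 h and 6.40, 5.95, 6.62, 6.48 and 5.76 at 48 h, and its change of −0.43 (−0.82 to −0.04) did not pass (adjusted p = 0.0682). After cyclic loess and robust z-score scaling it was −0.12 in both (adjusted p = 0.677 and 0.685), and centred on background probe sets it was −1.02 and called. At 48 h, rats 2 and 5 had the lowest values of Kcnc4, Kcnj12 and Kcna7, genes picked here for that order. Kcnj11 and Kcnn3 shared it in part, as rat 5 was the lowest at 48 h (4.61 and 6.80) but rat 2 the highest (7.12 and 7.76). Kcnma1 was lowest in rat 4 (6.01). The fibre markers were lowest in rats 2 and 5 too, at 6.74 and 7.53 for Des, 10.33 and 11.32 for Myh4 and 9.85 and 10.13 for Ckm, and their part in the order was not tested. In the same rats Cacnb1, a subunit of the muscle calcium channel, was also lowest (5.75 and 6.16, against 7.20 to 7.35 in the other rats at 48 h).

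The largest rise was that of Kcna1, a low-threshold voltage-gated channel best known from axons (TC0400003779.rn.2). It was 4.03, 3.89, 3.78, 3.94 and 3.74 at 0 h and 4.20, 5.70, 5.67, 6.02 and 6.16 at 48 h. In 48 h rat 1 it was close to the values at 0 h, though still above all of them, and in the other 4 rats it was clearly higher. The change was 1.68 (SE 0.28, adjusted p = 0.000129 from limma), or 2.01 without that rat. It was 1.09 centred on background probe sets and 1.16 centred on olfactory receptor genes, still called. Kcnq1, the pore of the slow repolarizing current of heart and epithelia (TC0100002934.rn.2), was 5.29, 5.17, 5.29, 5.11 and 5.27 at 0 h and 6.58, 6.40, 6.29, 6.21 and 6.44 at 48 h. Both groups were tight, and the change was 1.16 (SE 0.15, adjusted p = 8.29e-06). Centred on background probe sets or on olfactory receptor genes it was 0.57 or 0.64, under the fold of 2, with adjusted p = 0.00739 and 0.00355. Kcns2, a silent subunit that forms no channel alone (TC0700000951.rn.2), was 3.72 to 3.88 at 0 h and 5.09, 4.45, 5.32, 4.36 and 4.84 at 48 h. Its change of 1.01 (SE 0.19, adjusted p = 0.000376) lay at the threshold of fold, and the call ended in all 4 other scalings, with changes of 0.42 to 0.81. It also ended without any of 0 h rats 2 and 4 and 48 h rats 1 and 3, where the fold came to just under 2 or less. Of 5 measured neuronal markers none rose or fell, and their summed level was 6.25 to 6.52 at 0 h and 6.70 to 7.04 at 48 h. Of 5 Schwann cell markers Pmp22 rose (1.32), and Mbp, S100b, Sox10 and Egr2 had differences of 0.53, 0.38, 0.02 and −0.26. Their summed level was 9.23 to 10.02 at 0 h and 10.39 to 10.78 at 48 h, of which Pmp22, with means of 9.17 and 10.49, made up most, as the others had means of 4.23 to 5.58. The part of nerve, Schwann or endothelial cells in the rises was not tested.

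Several channel genes lie next to each other, and their changes are set side by side here without a test, as the neighbours were picked after their values were seen. Kcna5, Kcna1 and Kcna6 adjoin each other on chromosome 4 in the annotation of GRCr8 with mean differences of 0.22, 1.68 and 0.51 between 48 h and 0 h. The value of Kcna1 was thus 1.46 above that of Kcna5 and 1.17 above that of Kcna6, or 1.65 without 48 h rat 1. Kcna3, Kcna2 and Kcna10 adjoin on chromosome 2 and had differences of −0.04, 0.89 and −0.33. Kcna2, which pairs with Kcna1 in axonal channels, was 3.50 to 3.95 at 0 h and 4.09 to 4.89 at 48 h, with no overlap (adjusted p = 0.000672 from limma). Kcnj16 and Kcnj2 on chromosome 10 had differences of 0.15 and −0.75. Kcnk16 and Kcnk5, tandem-pore genes that adjoin on chromosome 15, had differences of 0.50 (−0.09 to 1.08) and 0.14 (−0.50 to 0.78). Kcnk5 had the second largest SD at 48 h (0.87), with rat 1 at 6.11 and the others at 3.93 to 4.94. Kcnk16 was 5.66 and 5.80 in rats 1 and 4 at 48 h and 4.28 to 4.45 in the others.

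Accessory subunits fell in 2 of 12 and rose in none. Kcnip3, a calcium sensor that binds voltage-gated channels and also represses transcription (TC0300004107.rn.2), was 6.33, 6.12, 5.99, 6.51 and 6.39 at 0 h and 4.74, 4.71, 4.47, 5.45 and 4.37 at 48 h. These groups did not overlap, and the change was −1.52 (SE 0.20, adjusted p = 1.19e-05 from limma). Kcnip1, Kcnip2 and Kcnip4 had differences of 0.69, 0.41 and 0.07. The 3 probe sets of Kcnip2 had differences of 0.21, 0.41 and 0.67, none called. Kcne5, a single-pass subunit encoded on the X chromosome (TC0X00002273.rn.2), was 6.04, 6.35, 6.11, 6.14 and 6.04 at 0 h and 5.22, 4.75, 5.34, 4.51 and 5.10 at 48 h, again without overlap. It fell by 1.15 (SE 0.18, adjusted p = 6.71e-05). Kcne3, the partner of Kcnc4 in muscle, was 3.66 to 4.24 at 0 h and 4.04 to 5.06 at 48 h and had a difference of 0.63 (SE 0.21, adjusted p = 0.024), under the fold of 2, but 0.37 (adjusted p = 0.178) after cyclic loess and 0.04 (adjusted p = 0.899) centred on background probe sets. Kcnab1, a cytoplasmic beta subunit related to oxidoreductases, was 6.40, 6.32, 5.82, 5.56 and 6.76 at 0 h and 5.39, 5.06, 5.16, 5.49 and 5.58 at 48 h. It had a difference of −0.84 (SE 0.21, adjusted p = 0.00458), or −1.43 and −1.36, both called, under the centrings on background probe sets and olfactory receptor genes, while the other beta subunits Kcnab2 and Kcnab3 had differences of 0.76 and 0.64 (adjusted p = 0.0133 and 0.0173). On the deposited scale none of the 3 reached the fold of 2.

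The remaining families held no gene that fell or rose, apart from Kcns2 among the 10 silent subunits. The 13 tandem-pore genes had differences of −0.32 (Kcnk6) to 0.71 (Kcnk12). Kcnk15 passed the adjusted p without overlap (0.53, adjusted p = 0.0153 from limma), and so did Kcnk12 with overlap (adjusted p = 0.0384). Kcnk2, a mechanosensitive leak channel, was 3.73 to 4.23 at 0 h and 3.43 to 4.15 at 48 h, with a change of −0.10 (−0.47 to 0.27), or −0.69 (adjusted p = 0.00675) centred on background probe sets. The 8 Kcnh genes had differences of −0.38 (Kcnh2, a repolarizing channel of the heart) to 0.34 (Kcnh8), and none passed the adjusted p. The 3 Kcnd genes, which carry transient currents in heart and neurons, had differences of 0.14 to 0.40, and the sodium-activated Kcnt1 and Kcnt2 of 0.04 and 0.16. In all, 17 genes passed the adjusted p under the fold of 2. Of these 3 were lower (Kcnn3, Kcnab1 and Kcnj2) and 14 were higher, by 0.44 to 0.89. Of the 14, 13 lay below the median level of all probe sets. Only 3 of the 14 passed the adjusted p after cyclic loess, none did when arrays were centred on background probe sets, and 5 then lay below 0. The groups did not overlap for 7 lower (8.14%) and 6 higher (6.98%) genes, against 17.7% and 13.4% of all probe sets. The lower ones were Kcnn3 and those that fell, except Kcnq5. The higher ones were the 3 that rose, Kcna2, Kcnj13 and Kcnk15.

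Subunits that share a channel were also set side by side. For 12 pairs of genes the difference between both genes was taken within each array, so that a shift equal for all genes of an array cancels. A shift that depends on level does not cancel, and several pairs set a gene of high level beside a dim one. Most first genes were picked for having fallen or risen, and the pairs after their values were seen, so the differences are a description and carry no test. The change of Kcnj11 less that of Abcc9, the sulfonylurea receptor with which it forms the ATP-sensitive channel of muscle, was −1.55. Abcc9 itself was 9.33, 9.27, 9.32, 9.60 and 9.30 at 0 h and 9.17, 9.26, 9.16, 9.28 and 9.07 at 48 h, a change of −0.18 (−0.49 to 0.14). For Kcnj11 and Abcc8, the receptor known from pancreatic beta cells, the difference was −1.24, with overlap between the groups of rats, and −0.76 after cyclic loess. The difference was −2.27 for Kcnma1 and Kcnmb1 and −2.39 for Kcnma1 and Kcnmb4, or −1.66 and −1.73 after cyclic loess. For Kcnc4 and Kcne3 it was −2.35 (−1.52 after cyclic loess and −1.43 after robust z-score scaling). It was −1.97 for Kcnj11 and Kcnj8, and −1.91 for Kcnip3 and its channel partner Kcnd3. In these 5 pairs and in Kcnj11 and Abcc9, all rats at 48 h lay below all rats at 0 h. The difference was −0.96 for Kcnj12 and Kcnj2, 0.91 for Kcnq1 and Kcne1 and 0.92 for Kcna1 and Kcnab2, each with overlap.

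**Figure D4:**
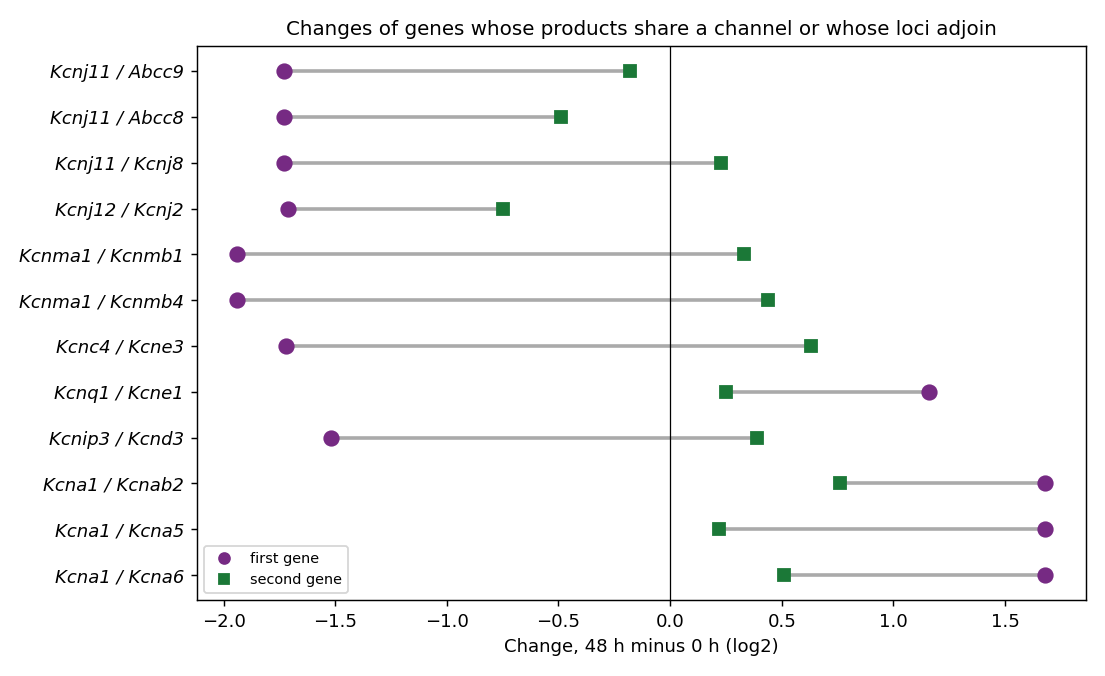
Change at 48 h (log2, 48 h minus 0 h; difference of means, n = 5 and 5) of both genes in 12 pairs whose products share a channel or whose loci adjoin. Circles are the first gene of a pair and squares the second. For Kcnma1 and Kcnmb4 they lie at −1.94 and 0.44.

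Partner proteins without a Kcn name were also counted. Of 20 listed, 16 were measured, and 3 fell and none rose, with a median change of −0.43. For this count and the next, 12.1% of all probe sets fell and 4.35% rose. At or above the median level of all probe sets, 22.7% fell. Calm3, one of the genes for calmodulin, which is a built-in calcium sensor of several of these channels, had a mean of 10.32 at 0 h and of 7.93 at 48 h and fell by 2.40 (limma adjusted p = 2.26e-07). Calm2, another gene for calmodulin, had a difference of −0.67, under the fold of 2. Ank3, the ankyrin that anchors channels to the membrane skeleton, fell by 1.52, and the anchoring protein Akap9 fell by 1.02. Of 11 other genes of fibre excitability 8 were measured, and Cacnb1 and the chloride channel Clcn1, which sets most of the resting conductance of muscle, fell by 3.24 and 1.40. The sodium channel of muscle, Scn4a, had a difference of −0.25 (−0.73 to 0.24). Cacna1s, Cacng1 and Atp1b2 had differences of 0.41, 0.31 and 0.16, and Fxyd1 and Atp1b1 of −0.74 and −1.08, none of them called.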

How the data were processed

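Femoral muscle of 10 rats was measured, 1 array per rat. The deposited log2 values were made by the authors with RMA after labelling with the GeneChip 3′ IVT Pico Kit. Their processing notes to GEO name Transcriptome Analysis Console 4.0 and rn6. RMA corrects background, equalizes the distribution of probe values between arrays and summarises probe sets, so changes are relative. The table holds 24834 rows. After 1646 control probe sets were left out, 23188 were compared with limma 3.58.1 in R 4.3.3 (lmFit and eBayes, two-sided), with Benjamini-Hochberg adjustment over all of them. Symbols came from the platform's probe table (15049 probe sets with a symbol), and the 86 gene symbols matched those of GRCr8. The script was tested on simulated data. Figures used matplotlib 3.10.9.

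Genes are named with values if known from muscle fibres, called (up to 4 per direction and subfamily), or among the 3 with the largest SD in a group. Others are named after their values were seen. The members, lists and pairs were chosen with earlier results of these data known. Alternatives covered scaling, moderation, thresholds, dim probe sets, probe set choice, a replicate block and leaving out each rat. The number of arrays limits the precision.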

Additional observations from a re-analysis of the deposited data

Results flagged for a closer look

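In 18 named genes with 2 groups each, 36 groups of 5 rats were searched for a value far from the rest by Dixon's criterion, which chance meets in about 1 group in 20. It was met once, for Kcna1 in rat 1 at 48 h, at 4.20 (log2) against 5.67 to 6.16 in the other 4 rats of that group.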

How the results depend on the processing

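Counts of genes that fell or rose (7 and 3) were within 1.5 times in most settings. They moved to 12 and 1 with arrays centred on background probe sets and to 11 and 1 centred on olfactory receptor genes. Over all probe sets 5917 (25.5%) and 5396 (23.3%) then fell, and 129 (0.556%) and 172 (0.742%) rose. All 7 falls remained among those counted in both, where every change was lowered by the same amount. Higher genes numbered 12 of 86 at a fold of 1.5 and 17 with adjusted p alone, against 16.4% and 22% of all probe sets. Without probe sets below the median level, which leaves 19 of the 86 genes, 1 was higher, against 4.61% of all probe sets left. Leaving out each rat gave 6 to 8 lower and 2 to 3 higher genes. Kcnk5 turned to −0.05 after cyclic loess, −0.45 centred on background, −0.38 centred on olfactory receptors, −0.00 after robust z-score scaling, −0.22 with Tukey biweight averages and −0.21 without 48 h rat 1 (−0.21 to 0.33 over single rats left out). Kcnk2 ranged from −0.18 to 0.00 over single rats left out. The cause was not tested. Rat numbers belong to different rats and their deviations did not correlate (−0.00 to 0.08 for same-numbered rats), so the numbers do not pair them. With the replicate block, 7 genes were lower and 3 higher, and 3 of 5 rats at 0 h correlated best with their own number. Falls of Kcnma1, Kcnj11, Kcnc4, Kcnj12, Kcnip3 and Kcne5 kept direction and threshold in 27 alternatives each, with adjusted p of at most 0.0184, and the rise of Kcna1 did in 26. Not all of these alternatives could end a call. The looser thresholds could not, and the choice among probe sets changed nothing for these genes, which have 1 probe set each. Both centrings lower every change, so they could end the rise of Kcna1 but hardly a fall. With Tukey biweight averages the adjusted p was kept from the fit to plain means.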
